A study of Mus musculus with 55 samples.

Results

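A group of NK homeobox genes was followed through pancreatic islets of mice lacking the Polycomb subunit Eed in β cells. They were Nkx2-1, Nkx2-3, Nkx2-5, Nkx2-6, Nkx2-9, Nkx3-2, Nkx6-2 and Nkx6-3, 8 of 47937 counted genes, taken as a list of family members that pattern other organs. Whole islets of C57B6/J mice were profiled by bulk RNA-seq in 16 libraries. Wild type (WT) had 3 libraries at 8 weeks and 3 at 25 weeks, heterozygotes (HET) 3 and 2, and βEedKO (KO, labelled Eed -/-) 3 and 2. Per the study's methods Eed was floxed and removed with a Cre driven by the rat insulin promoter, so that islet cells other than β cells keep their Eed, and a library may pool islets of several mice, more of them in the KO libraries at 25 weeks than in the others. The labels do not say whether WT and HET mice carried Cre or floxed alleles. Each gene's chromatin state came from a segmentation of WT islets, deposited as 24 state letters.

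NK homeobox genes encode transcription factors that fix organ identity in the embryo. Nkx2-1 is needed for thyroid, lung and ventral forebrain, Nkx2-3 for spleen and gut mesenchyme, and Nkx2-5 for the heart. Nkx2-6 is a pharyngeal gene, Nkx2-9 a gene of the ventral neural tube, Nkx3-2 a gene of the sclerotome and cartilage, Nkx6-2 a gene of ventral neural tube and oligodendrocytes, and Nkx6-3 a gene of the stomach antrum. Their relatives Nkx2-2 and Nkx6-1 are β cell regulators. Eed is a core subunit of Polycomb repressive complex 2, which places H3K27me3 on silent developmental genes. A start site that carries this mark together with H3K4me3 is called bivalent.

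In WT islets 7 of the 8 genes had their start site in state M, the bivalent state with high H3K27me3. They were Nkx2-1, Nkx2-3, Nkx2-5, Nkx2-6, Nkx2-9, Nkx3-2 and Nkx6-2. State M held 1624 of 28877 annotated genes with a state, or 5.62%. The same 7 genes were in state M at the start of each annotated transcript, over most of 1 kb around the start and at the RefSeq start. The start of Nkx6-3 lay in state R, a state of mixed weak marks that held 0.99% of genes. Its body was 52.8% state N, a Polycomb repressed state, 23.7% state M and 14.1% state L, the bivalent state with high H3K4me3.

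The length of the Polycomb block differed among the genes. An unbroken run of the bivalent and Polycomb states L, M, N and O around the start reached 103200 bp at Nkx2-1, longer than the runs at 98.4% of state M genes. It reached 83200 bp at Nkx2-3 (97.6%), 50600 bp at Nkx2-9 (91.2%), 36400 bp at Nkx2-5 (83.0%), 32000 bp at Nkx3-2 (78.5%) and 22800 bp at Nkx2-6 (67.7%). At Nkx6-2 it was 6600 bp, longer than 14.3% of state M genes, and at Nkx6-3 it was 0 bp because the start itself lay outside these states. The median over state M genes was 15600 bp. Among other Nkx genes, Nkx1-1, Nkx1-2 and Nkx2-4 also began in state M. The β cell genes Nkx2-2 and Nkx6-1 began in state A, the active start site state, which held 23.12% of genes. The segmentation was made with replicates averaged and has no spread between animals.

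**Figure D1:**
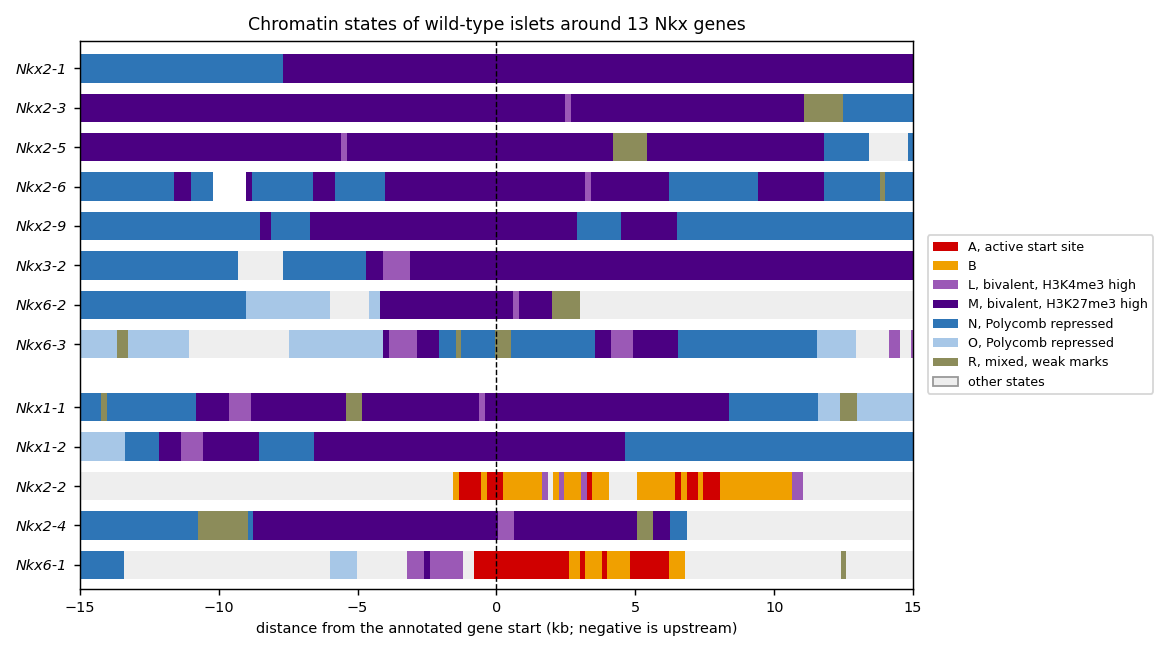
Chromatin states of WT islets from 15 kb upstream to 15 kb downstream of the annotated start (dashed line, distance in kb) of the 8 Nkx genes and of 5 other Nkx genes, 1 row a gene, with white where no state was given. State M covers the start of 7 of the 8 genes, and state A the starts of Nkx2-2 and Nkx6-1.

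The genes lie at 7 separate places in the genome (GRCm38). Nkx2-1 (ENSMUSG00000001496.15, chromosome 12 from 56531958 to 56536908, minus strand) and Nkx2-9 (ENSMUSG00000058669.7, chromosome 12 from 56611389 to 56613284, minus strand) have starts 76.4 kb apart. Nkx2-3 (ENSMUSG00000044220.13) spans 43612325 to 43615892 of chromosome 19, plus strand. Nkx2-5 (ENSMUSG00000015579.4) spans 26838664 to 26845009 of chromosome 17, minus strand. Nkx2-6 (ENSMUSG00000044186.10) spans 69171802 to 69175518 of chromosome 14, plus strand. Nkx3-2 (ENSMUSG00000049691.8) spans 41761483 to 41764501 of chromosome 5, minus strand. Nkx6-2 (ENSMUSG00000041309.17) spans 139579376 to 139582797 of chromosome 7, minus strand. Nkx6-3 (ENSMUSG00000063672.7) spans 23153269 to 23158948 of chromosome 8, plus strand.

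CpG-rich starts are the usual seat of bivalent chromatin, so sequence just upstream of the start is shown for the 3 genes called in βEedKO islets and for Nkx6-2, the most CpG-rich of those at hand for the 8 genes. The sequences are from RefSeq on GRCm38.p6, minus strand for Nkx2-1, Nkx2-5 and Nkx6-2, read 5′ to 3′ toward the gene, with each CpG in capitals. They lie at chr12:56536909-56537158 (Nkx2-1), chr19:43612075-43612324 (Nkx2-3), chr17:26841609-26841815 (Nkx2-5) and chr7:139582798-139583047 (Nkx6-2). The RefSeq start of Nkx2-5 used here is a downstream start within the GENCODE gene. The RefSeq start at which its state was read lay 21 bp from the GENCODE start. Bases that an annotated exon covers were left out.
Nkx2-1: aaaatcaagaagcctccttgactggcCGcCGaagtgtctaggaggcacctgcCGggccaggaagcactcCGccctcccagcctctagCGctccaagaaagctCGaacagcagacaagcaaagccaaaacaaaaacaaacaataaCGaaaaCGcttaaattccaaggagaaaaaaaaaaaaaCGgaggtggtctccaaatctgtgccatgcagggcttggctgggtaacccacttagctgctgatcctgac
Nkx2-3: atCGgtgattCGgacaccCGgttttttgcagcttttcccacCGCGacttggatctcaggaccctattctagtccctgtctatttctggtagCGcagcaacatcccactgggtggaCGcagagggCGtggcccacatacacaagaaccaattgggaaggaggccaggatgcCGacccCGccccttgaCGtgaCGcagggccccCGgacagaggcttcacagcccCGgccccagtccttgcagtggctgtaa
Nkx2-5: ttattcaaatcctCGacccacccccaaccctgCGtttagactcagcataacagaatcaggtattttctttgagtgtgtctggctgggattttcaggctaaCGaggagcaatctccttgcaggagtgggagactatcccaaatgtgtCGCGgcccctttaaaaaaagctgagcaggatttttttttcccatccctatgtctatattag
Nkx6-2: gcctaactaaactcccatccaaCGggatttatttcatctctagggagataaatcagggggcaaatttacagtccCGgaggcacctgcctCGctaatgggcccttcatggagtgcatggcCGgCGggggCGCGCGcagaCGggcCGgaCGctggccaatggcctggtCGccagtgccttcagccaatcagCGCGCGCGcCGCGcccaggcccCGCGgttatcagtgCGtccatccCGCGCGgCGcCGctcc

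These windows lay in state M in WT islets. Of the 8 genes 6 had a promoter in the RefSeq table of 32851. Over the 250 bases before the start, CpG counts were 9 for Nkx2-1, 14 for Nkx2-3, 8 for Nkx2-5, 13 for Nkx2-9, 21 for Nkx3-2 and 26 for Nkx6-2, and the median of all promoters was 6. Nkx6-2 had more CpGs than 90.4% of promoters and Nkx2-5 more than 57.0%. The 3 genes called at 25 weeks had fewer CpGs here than Nkx3-2 and Nkx6-2, while Nkx2-9 had fewer than the called Nkx2-3. The count of Nkx2-5 is from its downstream start. A GC box (GGGCGG on either strand, in 32.7% of promoters) was present once in Nkx2-1, Nkx2-3 and Nkx3-2 and 4 times in Nkx2-9. A CCAAT box (either strand, 33.8% of promoters) was present at 2 separate sites in Nkx6-2. In Nkx2-3 it was present as 2 overlapping matches on opposite strands, which make up 1 site. TATAAA (12.4% of promoters), TTAATTA (2.8%), which NK6 factors prefer, and TNAAGTG (10.1%), which NK2 factors prefer, were in none of the 6 windows on either strand.

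The libraries held 4645393 to 22925359 counted reads, the shallowest being WT replicate 2 at 25 weeks. Eed was lower in each KO library than in any WT library of its age, at 13.4 to 14.9 CPM (reads scaled to a common library size by TMM factors) against 23.8 to 33.1 in WT at 8 weeks, and 14.2 and 15.6 against 19.3 to 28.3 at 25 weeks. The difference was not called at either age (log2 fold change −1.04, adjusted p = 0.0881, and −0.69, adjusted p = 0.142). Heterozygous libraries held 16.3 to 20.5 CPM. Islet identity was checked by marker lists. At 25 weeks 9 of 10 β cell markers were lower in KO and 0 were higher, with a summed level of 14000 and 17400 CPM against 124000 to 221000 in WT. Over all genes tested at that age 6.6% were called in either direction. The KO libraries at 25 weeks also stood apart from each other in acinar markers, which summed to 439000 CPM in replicate 2 and 13500 CPM in replicate 3, against 33600 to 243000 in WT.

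In 25-week-old βEedKO islets 7 of the 8 Nkx genes were higher in each KO library than in any WT library, and Nkx6-3 was the exception. Over all 47937 counted genes 13.6% stood apart in this way, and over the 18685 tested genes 24.7% did. In KO replicate 2 Nkx2-6 stood apart by 1 read and Nkx6-2 by 2 reads. By the quasi-likelihood test of edgeR 6 of the 8 genes could be tested, and 3 of the 6 were called higher at an adjusted p under 0.05: Nkx2-1, Nkx2-3 and Nkx2-5. Over all 18685 genes tested 4.58% were called higher (856 genes) and 378 genes were lower, 6.6% in either direction. With library size alone as the scaling the split was 805 higher and 79 lower, the median of all genes moved from 0.029 to 0.27 on the log2 scale, and the same 3 genes were called. The 2 genes not tested, Nkx2-6 and Nkx2-9, had too few reads, so that the tested genes are those with reads somewhere, and in 3 of them only KO islets had more than 1 read in any library. In bulk islets fewer cells with a transcript and less RNA per cell cannot be told apart.

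**Figure D2:**
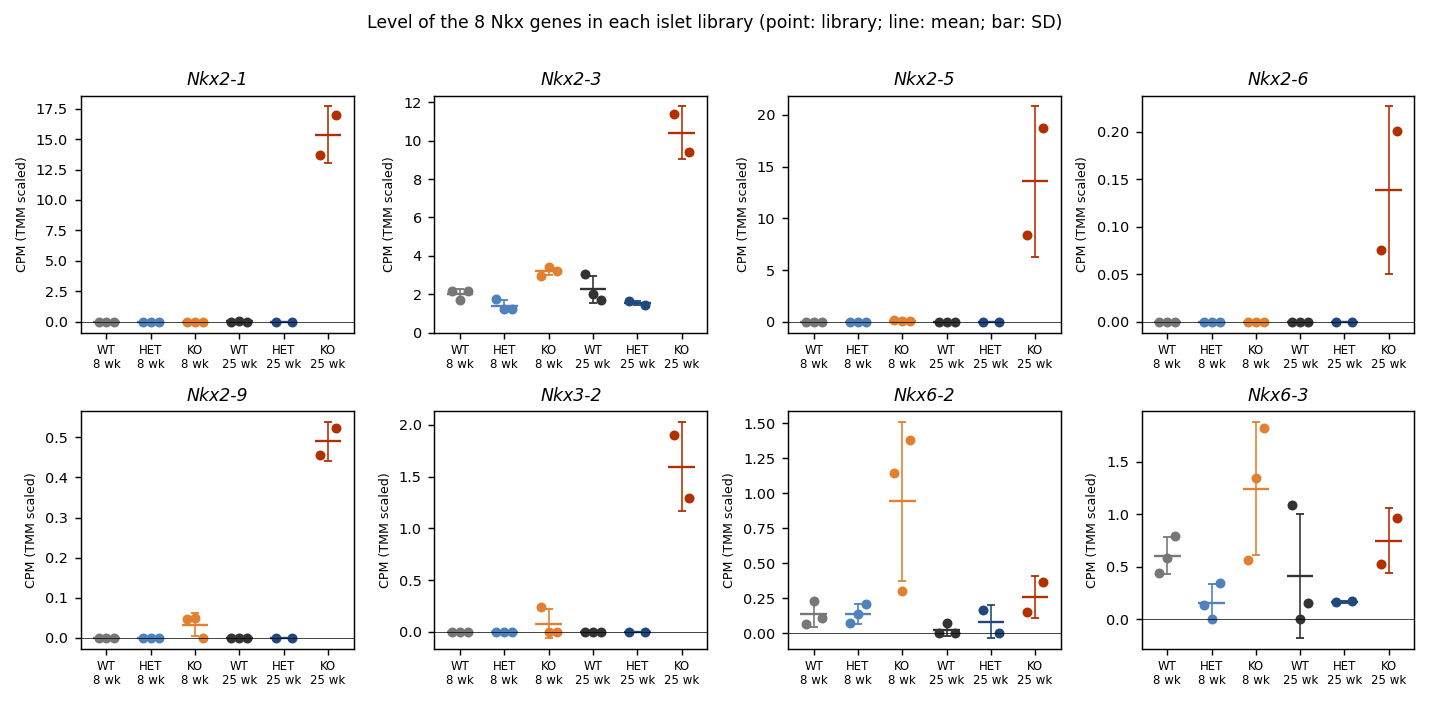
Level of each Nkx gene in CPM (own linear axis per panel) in the 16 islet libraries, by genotype and age; points are libraries, lines are group means and bars are SD (n = 2 or 3). For 6 genes both KO libraries at 25 weeks lie above the other 14, while Nkx6-2 and Nkx6-3 have their highest mean in KO at 8 weeks.

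Nkx2-1, the thyroid, lung and forebrain regulator, had the most reads of the 8 genes over the KO libraries at 25 weeks. It had 180 and 421 reads in KO replicates 2 and 3 at 25 weeks. It had 0, 1 and 0 reads in WT and 0 and 0 in HET at that age, and 0 in each of the 9 libraries at 8 weeks, KO included. At 25 weeks the level was 15.3 ± 2.32 CPM in KO (SD, n = 2) and 0.0251 ± 0.0434 in WT (n = 3). The ratio of reads at equal depth was 488, with an exact 95% counting interval from 87.2 to 19300, and the call held at adjusted p = 0.00368. In KO islets at 8 weeks a count of 0 allows up to 0.057 CPM over the 3 libraries.

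Nkx2-5, the cardiac regulator, showed reads in KO islets at both ages and in no other group. It had 111 and 464 reads in KO at 25 weeks and 5, 2 and 1 reads in KO at 8 weeks. It had 0 reads in each of the 11 WT and HET libraries. The mean in KO at 25 weeks was 13.6 ± 7.26 CPM (n = 2), at least 156-fold above the level that 3 reads over the WT libraries would give (adjusted p = 0.00348). The KO libraries were uneven, at 8.44 CPM in replicate 2 and 18.7 CPM in replicate 3, and both were above every WT library. At 8 weeks the KO mean was 0.141 ± 0.0831 CPM (n = 3), at least 2.63-fold above the WT floor, and was not called (adjusted p = 0.304).

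Nkx2-3, which patterns spleen and gut mesenchyme, was the only one of the 8 with reads in all 16 libraries. At 25 weeks it had 150 and 234 reads in KO, 14, 27 and 22 in WT, and 30 and 25 in HET. The level was 10.4 ± 1.40 CPM in KO (n = 2), 2.26 ± 0.704 in WT (n = 3) and 1.55 ± 0.124 in HET (n = 2), with no overlap. The log2 fold change of KO over WT was 2.18 (SE 0.36, adjusted p = 0.00625). With the replicate block it was 2.00 and no longer called (adjusted p = 0.0526), and without KO replicate 2 it was 2.01 (adjusted p = 0.0578). Nkx2-1 and Nkx2-5 were called under both. The fit without replicate 2 holds a single KO library at 25 weeks, assumed to vary like the other groups.

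Nkx3-2, the sclerotome gene, had 25 and 32 reads in KO at 25 weeks and 0 in each of the 11 WT and HET libraries. KO replicate 1 at 8 weeks had 5 reads and the other KO libraries of that age 0. The KO mean at 25 weeks was 1.60 ± 0.432 CPM (n = 2), at least 15.4-fold above the WT floor. It was not called (adjusted p = 0.0899), and was called with no filter on low counts (adjusted p = 0.0372), with WT and HET pooled (0.0251) and without KO replicate 1 at 8 weeks (0.0472).

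The genes below the filter followed the same order of groups. Nkx2-9 had 6 and 13 reads in KO at 25 weeks, 1, 1 and 0 in KO at 8 weeks, and 0 in all 11 WT and HET libraries. Nkx2-6 had 1 and 5 reads in KO at 25 weeks and 0 in the other 14 libraries. Their lower bounds against WT at 25 weeks were 5.14-fold for Nkx2-9 and 1.62-fold for Nkx2-6. They entered the test only with no filter on low counts or with some libraries left out, and neither was called there (lowest adjusted p 0.152 for Nkx2-9).

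Nkx6-2 and Nkx6-3 had their highest means in KO islets at 8 weeks, unlike the rest, but KO libraries of the ages overlapped for both. Their WT means were also higher at 8 than at 25 weeks, at 0.134 against 0.0251 CPM for Nkx6-2 and 0.606 against 0.415 CPM for Nkx6-3. Nkx6-2, a neural tube gene, had 24, 6 and 16 reads in KO at 8 weeks against 1, 4 and 2 in WT and 1, 3 and 3 in HET, with no overlap. At 25 weeks it had 2 and 9 reads in KO, 0, 1 and 0 in WT, and 3 and 0 in HET. The level in KO was 0.941 ± 0.568 CPM at 8 weeks (n = 3) and 0.257 ± 0.149 CPM at 25 weeks (n = 2). The log2 fold change over WT was 2.72 (SE 0.91, adjusted p = 0.407) at 8 weeks and 2.74 (SE 1.27, adjusted p = 0.261) at 25 weeks, and neither was called.

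Nkx6-3, the antral gene whose start was outside state M, had 12, 27 and 21 reads in KO at 8 weeks. WT had 7, 10 and 15 reads and HET 2, 0 and 5 at that age. At 25 weeks KO had 7 and 24 reads, WT 5, 0 and 2, and HET 3 and 3. KO and WT overlapped at both ages in CPM (0.569 to 1.82 against 0.444 to 0.794 at 8 weeks, and 0.532 to 0.967 against 0 to 1.09 at 25 weeks). The log2 fold changes were 1.02 (SE 0.96, adjusted p = 0.892) and 1.17 (SE 1.17, adjusted p = 0.648).

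**Figure D3:**
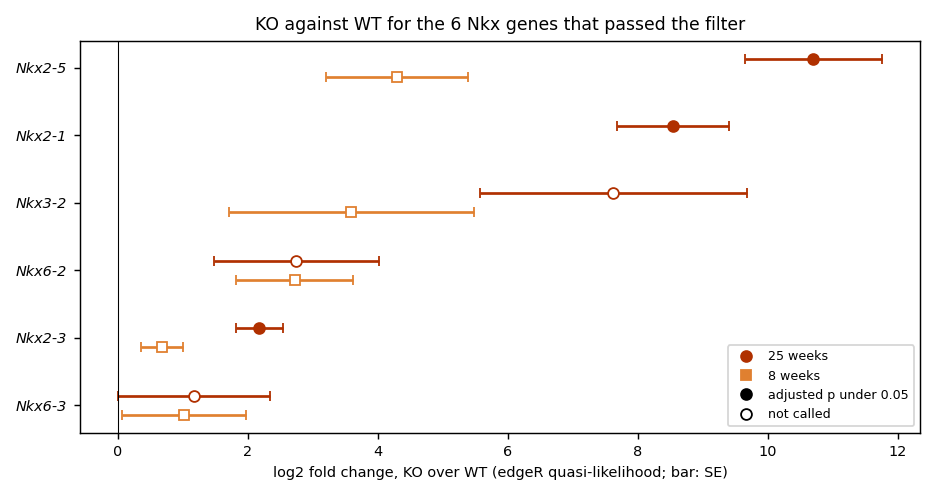
Fitted log2 fold change of KO over WT islets (edgeR, bars are SE) for the 6 Nkx genes tested, at 25 weeks (circles) and 8 weeks (squares), filled where called; Nkx2-1 at 8 weeks had 0 reads in both groups. Filled symbols are Nkx2-1, Nkx2-3 and Nkx2-5 at 25 weeks, and values of genes at 0 in WT depend on the prior count and are no bound.

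Over the 6 tested genes the median log2 fold change at 25 weeks was 5.18, or 3.34 with genes at 0 in WT set to their lower bound, against 0.0289 over all genes tested. At 8 weeks it was 1.87, or 0.866 with the bounds, against 0.00388. Over tested genes of state M, in which all of the 6 but Nkx6-3 began, the fitted medians were 2.08 at 25 weeks and 0.636 at 8 weeks. At 8 weeks 0 of 6 were called, and 0.428% of all genes were called higher (80 genes, with 1 lower, 0.434% in either direction). With the replicate block no gene at all was called at 8 weeks. At an unadjusted p under 0.05 Nkx2-5 and Nkx6-2 passed at 8 weeks, as did 1470 of all 18685 genes, and DESeq2 also called 0 of the 6. Nkx2-3, Nkx2-5 and Nkx6-2 were the 3 genes with no overlap between KO and WT at that age, a pattern that 3.08% of counted genes and 6.53% of tested genes had. Nkx2-3 had 63, 68 and 37 reads in KO and 34, 29 and 41 in WT, or 3.20 ± 0.212 against 2.00 ± 0.276 CPM (log2 fold change 0.67, SE 0.33, adjusted p = 0.670).

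Between 8 and 25 weeks in KO islets 2 of the 6 tested genes were called higher, where 1.02% of all genes were (190 higher, 91 lower, and 153 and 15 with library size alone). These were Nkx2-1, from 0 reads, at least 278-fold above the floor of the KO libraries at 8 weeks (adjusted p = 0.00749), and Nkx2-5 (log2 fold change 6.41, SE 0.72, adjusted p = 0.0153). Without KO replicate 2 or 3 at 25 weeks neither was called, and without KO replicate 4 or 5 at 8 weeks Nkx2-5 was not. Nkx2-3 had a log2 difference of 1.65 (SE 0.35, adjusted p = 0.0508) and Nkx3-2 of 4.03 (SE 1.36, adjusted p = 0.264). Nkx6-2 and Nkx6-3 pointed the other way (−1.83 and −0.76, adjusted p = 0.430 and 0.777). These values share the KO libraries with the comparison against WT. They also span the onset of the diabetes that the study reports.

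The test of whether the KO effect itself differed between the ages called 0 of the 6 genes, where 0.091% of all genes were called higher and 0.198% in either direction (17 higher and 20 lower, and 8 and 3 with library size alone). It gives no usable answer for Nkx2-1, Nkx2-5, Nkx3-2 and Nkx6-2, whose WT groups at 25 weeks were at 0 or 1 read. For Nkx2-3 the difference of the log2 effects was 1.5 (SE 0.49, adjusted p = 0.381), and 1450 genes in all passed at an unadjusted p under 0.05. The fitted differences were 0.02 for Nkx6-2 and 0.15 for Nkx6-3 (SE 1.39), adjusted p = 0.9999 for both. For Nkx6-2 DESeq2 gave −0.07 with an SE of 2.04. With so few reads these values do not show equal effects at both ages. DESeq2 called 1, Nkx2-1 (adjusted p = 0.0107).

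Loss of 1 Eed allele was examined in the heterozygotes. HET and WT differed in 0 of the 6 genes at each age, and in 0.0% of all 18828 genes tested at either. At an unadjusted p under 0.05, 2743 genes passed at 8 weeks and 210 at 25 weeks, none of the 6 among them, and DESeq2 called 413 and 3 genes, again none of the 6. Nkx2-1, Nkx2-5, Nkx2-6, Nkx2-9 and Nkx3-2 had 0 reads in all 5 HET libraries, which allows up to 0.0583 CPM at 8 weeks and 0.0845 CPM at 25 weeks. Against HET, KO at 25 weeks had 3 of 6 genes called higher (Nkx2-1, Nkx2-3 and Nkx2-5, adjusted p = 0.00397, 0.00112 and 0.00455), where 5.41% of all genes were and 8.36% were called in either direction (1018 higher and 556 lower, and 766 and 147 with library size alone). KO against HET at 8 weeks had 1 of 6, Nkx2-3 (log2 fold change 1.18, SE 0.30, adjusted p = 0.0436), where 3.6% of all genes were and 4.74% were called in either direction (678 higher and 214 lower, and 479 and 26 with library size alone). This call did not hold with library size as the sole scaling (adjusted p = 0.0755), nor when HET replicate 1, 2 or 3 or KO replicate 4 or 5 was left out (0.0837 to 0.136).

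Levels per length were compared within KO islets at 25 weeks, as RPKM on exon lengths. Nkx2-5 stood at 4.91 and 10.9 RPKM, Nkx2-1 at 4.81 and 5.97, and Nkx2-3 at 5.4 and 4.46, and these 3 overlapped. Nkx3-2 at 1.11 and 0.751 RPKM was below all 3 in both libraries. Nkx2-9 (0.361 and 0.414) and Nkx6-3 (0.238 and 0.432) overlapped, as did Nkx6-2 (0.0797 and 0.190) and Nkx2-6 (0.067 and 0.178). In WT islets at 8 weeks the order was Nkx2-3 (0.949 ± 0.131 RPKM), Nkx6-3 (0.271 ± 0.0789) and Nkx6-2 (0.0702 ± 0.0461), with the other 5 at 0 reads. The β cell gene Nkx6-1 went from 99.5 ± 8.22 RPKM in WT to 9.26 ± 3.06 in KO at 25 weeks (called lower, adjusted p = 0.00637), and Nkx2-2 from 39.1 ± 1.59 to 19.9 ± 4.92 (not called, adjusted p = 0.202).

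Other relatives were near 0. Nkx2-4, a close relative of Nkx2-1, had 5 and 14 reads in KO at 25 weeks, 5, 2 and 0 in KO at 8 weeks and 0 elsewhere. Nkx1-1 had 5 and 19 reads in KO and 0, 1 and 1 in WT at 25 weeks. Nkx1-2 had 0 reads in all 16 libraries although its start was in state M, with a Polycomb run of 36600 bp.

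Genes next to the 8 were read out to see whether the differences reached beyond them. The nearest protein-coding gene on each side that does not overlap the Nkx gene gave 13 genes outside the family, all tested. Of these, 2 were called higher at 25 weeks and 0 lower, where 4.58% of all genes were called higher. The 2 were Pax9, the other gene of the chromosome 12 cluster with Nkx2-1 and Nkx2-9, and Ank1, which ends 2.8 kb before Nkx6-3. Pax9, a pharyngeal and sclerotome regulator with start state M, had 111 and 219 reads in KO at 25 weeks, 4, 1 and 2 in KO at 8 weeks, and 0 in the 11 WT and HET libraries (adjusted p = 0.00403). Ank1, which encodes the cytoskeletal protein ankyrin, had 1.09, 1.5 and 1.39 CPM in WT and 6.46 and 11.3 in KO at 25 weeks (log2 fold change 2.66, SE 0.45, adjusted p = 0.00676). At 8 weeks it had 2.73, 2.91 and 4.02 CPM in WT and 5.92, 12.8 and 14.2 in KO, with no overlap and no call (adjusted p = 0.116). Its start lay in state L. The 8 neighbours that began in state A or state B had log2 fold changes from −0.343 to 0.415, and none was called (lowest adjusted p = 0.478). Over all genes tested 0.429% in state A and 2.39% in state B were called higher. At such shares 8 genes without a call cannot show how far the differences reached. Got1 and Slc25a28 beside Nkx2-3, Bnip1 beside Nkx2-5, and Rab28 and Bod1l beside Nkx3-2 were among these 8 neighbours.

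Nkx2-1, Nkx2-6 and Nkx6-2 overlap another annotated gene, and whether strand was used in counting is not stated. Gm26973, antisense to Nkx2-1, had 0.609 CPM in KO at 25 weeks and 0 elsewhere. The antisense gene 1700092C10Rik at Nkx2-6 had 0 throughout. Inpp5a, whose 3′ end overlaps Nkx6-2 on the other strand, had 74.5 CPM in KO and 71.3 in WT at 8 weeks, and its part in the few reads of Nkx6-2 was not tested.

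State M as a whole gives the setting of these calls. Of 902 state M genes tested, 27.1% were called higher at 25 weeks, against 13.9% in state L, 6.94% in state N and 0.429% in state A. With these genes in 4 bins by Polycomb run, the share was 16.3% for runs of 200 to 8200 bp, 19.6% for 8400 to 15000 bp, 27.9% for 15200 to 27400 bp and 44.6% for 27800 to 136800 bp. Nkx2-1, Nkx2-3, Nkx2-5 and Nkx3-2 had runs in the longest bin and Nkx6-2 in the shortest. The called genes of the list are among those counted. A gene at 0 in WT passed the filter through its KO reads alone, as Nkx2-5 did. These shares are of tested genes and depend on that filter. The bins were chosen after the data were seen and carries no test.

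The genes whose levels most resembled the mean of the 6 tested Nkx genes over the 16 libraries were all regulators with start state M. Likeness was Pearson's r between a gene's log2 CPM (pseudocount 0.5) and the mean of the 6 Nkx genes, and 1.9% of 18828 genes had an r over 0.9. The highest were Tfap2a (r = 0.994), Hmx1 (0.991), Hoxc10 (0.99), Pou3f3 (0.989) and Hoxc9 (0.989). The 6 Nkx genes did not share 1 pattern. Against Nkx2-1, r was 0.99 for Nkx2-5, 0.97 for Nkx3-2, 0.88 for Nkx2-3, 0.2 for Nkx6-3 and 0.05 for Nkx6-2. Hmx1 had 8.29 ± 0.211 CPM in KO at 25 weeks, 0.476 ± 0.157 in KO at 8 weeks and 0 reads in the other groups. Hoxc10 and Hoxc9, which mark the posterior body, reached 10.3 ± 2.22 and 8.73 ± 1.38 CPM in KO at 25 weeks. The libraries fall into separate sets, with the 2 KO libraries at 25 weeks far above the rest, and over the other 14 libraries r was 0.934 for Tfap2a and 0.878 for Hoxc9. The points share library depth and the scaling, and no p is given.

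Lists of other genes from the tissues in which these factors act were counted in the same fit. Each gives its calls at 25 weeks and its median log2 fold change with genes at 0 set to their bound, beside 0.0286 for all genes. Over all genes tested 4.58% were called higher and 6.6% in either direction. By start state, 27.1% of state M genes and 13.9% of state L genes were called higher. The lists were drawn from textbook knowledge after earlier results of these data were known. Of the gut and spleen mesenchyme list 6 of 14 tested genes were higher and 0 lower (median 3.35). The spleen regulator Tlx1 rose from 0.0508 ± 0.044 CPM in WT to 13.2 ± 0.203 in KO (adjusted p = 0.000615), the stomach mesenchyme gene Barx1 from 0.0515 ± 0.0893 to 19.2 ± 3.89 (0.00154) and Foxf1 from 1.48 ± 0.384 to 28.9 ± 15.3 (0.000966). Of the pharynx list 4 of 7 were higher (median 5.89), with Pax1 at 0.0258 ± 0.0446 and 17.0 ± 8.50 (0.00471).

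The thyroid list had 4 of 10 higher and 1 lower (median 2.54). Foxe1, the partner of Nkx2-1 in the thyroid, was at 0 in WT and 2.93 ± 0.0448 CPM in KO (adjusted p = 0.0149), and the iodide transporter Slc5a5 rose from 0.604 ± 0.218 to 3.74 ± 0.348 (0.0342). The gene lower was Dio1, a deiodinase that activates thyroid hormone, at 64.9 ± 7.74 and 19.5 ± 8.83 CPM (0.00676). The ventral forebrain list had 4 of 10 higher and 1 lower (median 3.89), with Lhx6 at 0.375 ± 0.328 and 8.23 ± 3.09 CPM (0.00545) and Lhx8 at 0 and 4.77 ± 0.0241 (0.030). The gene lower there was Gad1, an enzyme of GABA synthesis that islets also express, at 195 ± 26.6 and 19.2 ± 6.05 CPM (0.00017). The heart list had 3 of 12 higher and 0 lower (median 1.54), with Tbx5 at 0.0759 ± 0.0752 and 10.5 ± 0.395 CPM (0.0042) and Tbx20 at 0 and 3.40 ± 0.136 (0.0418).

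The sclerotome and cartilage list had 4 of 11 higher and 0 lower (median 1.96), and shares Pax1 and Pax9 with the pharynx list. The ventral neural tube list had 4 of 12 higher and 3 lower (median 0.00521). En1 was at 0 in WT and 9.5 ± 0.531 CPM in KO (0.00479), and Shh at 0.0251 ± 0.0434 and 3.51 ± 0.408 (0.0102), while the islet genes Pax6 and Nkx6-1 on that list were lower. Of the stomach antrum list 2 of 10 were higher (median 2.99), Barx1 and the islet and stomach hormone gene Ghrl. No gene was called in the lung epithelium list (0 of 6, median 0.828) or the oligodendrocyte list (0 of 8, median 1.59). At 8 weeks 1 ventral forebrain, 1 pharynx and 2 gut and spleen mesenchyme genes were called higher and none in the other lists. Over all genes tested 0.428% were called higher at that age.

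**Figure D4:**
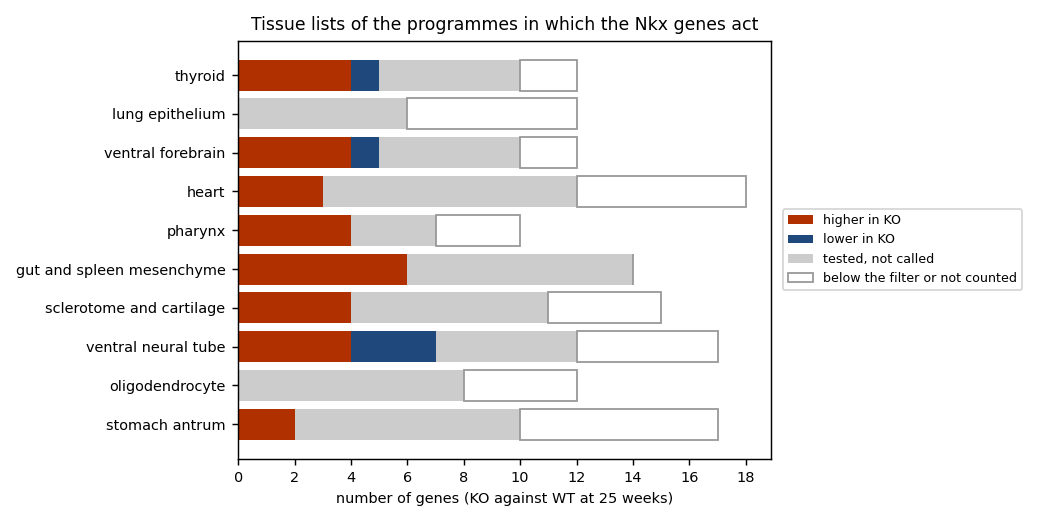
Number of genes in each tissue list that were called higher, called lower, tested without a call, or below the filter, KO against WT islets at 25 weeks. Bars are stacked counts. The gut and spleen mesenchyme list has 6 of 14 higher, and the lung epithelium and oligodendrocyte lists have 0. Over all genes tested 4.58% were called higher.

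Markers of other cells in the preparation also moved with genotype at 25 weeks. Over all genes tested 4.58% were called higher and 6.6% in either direction. Of 9 mesenchyme markers 4 were higher (Pdgfra, Dcn, Col1a2 and Col1a1), and their list summed to 418 and 546 CPM in KO against 172 to 258 in WT. These 4 began in state M, where 27.1% of genes were called higher. Lum, which began in state P, had 4.6 ± 1.5 CPM in WT and 18.2 ± 9.81 in KO and was not called (adjusted p = 0.0545). Of 7 duct markers 3 were higher (586 and 730 against 266 to 326 CPM), of 8 leukocyte markers 1 was higher and 1 lower (117 and 368 against 81.4 to 149 CPM), and of 7 endothelial markers 0 were called (343 and 426 against 335 to 365 CPM). Of 7 α cell markers 2 were higher and 1 lower, and none of 4 δ and PP cell or 8 Schwann cell and neuron markers was called. No marker of these lists was at 0 in a KO library at 25 weeks. At 8 weeks the mesenchyme list had a median log2 fold change of 1.07 with 0 called, against a median of 0.00388 over all genes. The part of these other cell types in the rise of Nkx2-3, a gene of mesenchyme, was not tested. Of 10 acinar markers 0 were called, and the part of acinar RNA in the Nkx results was not tested.

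**Figure D5:**
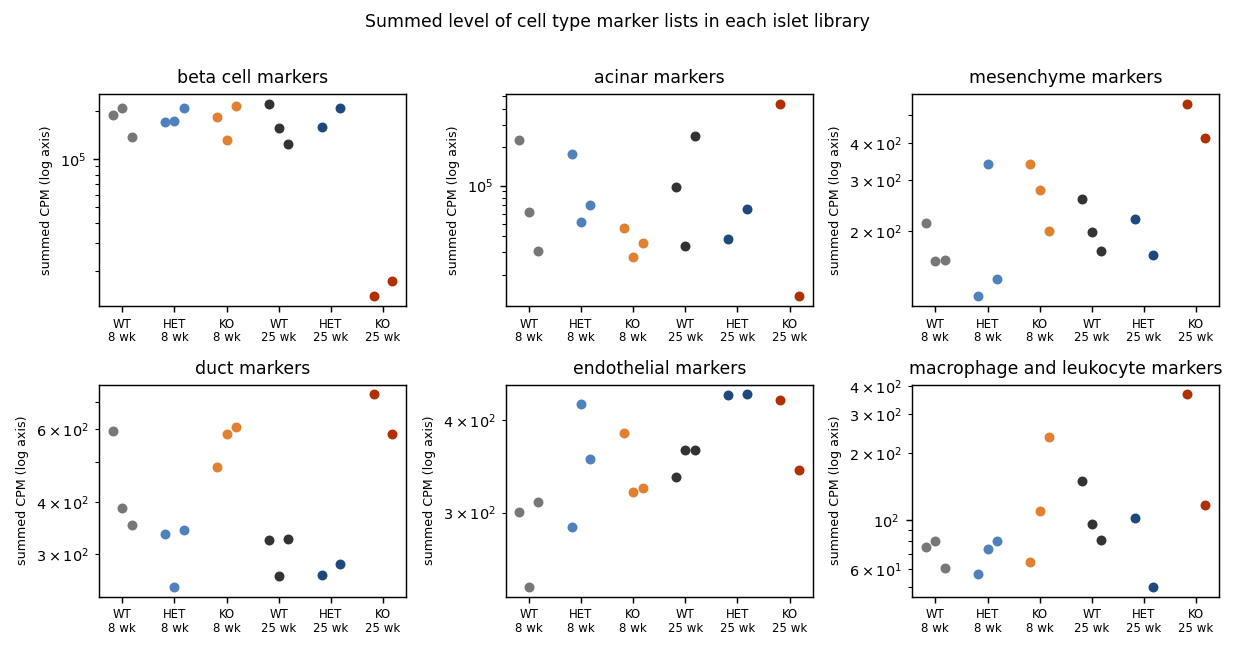
Summed CPM (log axis) of 6 cell type marker lists in each of the 16 islet libraries, by genotype and age; each point is a library. β cell markers are lowest in the 2 KO libraries at 25 weeks, mesenchyme markers are highest there, and acinar markers are 439000 and 13500 CPM in those 2 libraries.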

How the data were processed

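The authors sequenced mRNA libraries made from total RNA of whole islets. For 16 libraries the authors deposited unnormalized gene counts (TopHat2 2.0.13 and featureCounts on GRCm38 and Gencode M9 gene models); use of strand is not stated, and 0 count columns were unused. The authors deposited the WT chromatin segmentation (EpicSeg, 200 bp bins, 1653154 segments on 19 autosomes) as state letters. The other data types of the series were not used here.

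Counts were fitted in R 4.3.3 with edgeR 4.0.16 (quasi-likelihood test, TMM, filterByExpr by group) over the 11 WT and KO libraries (18685 genes) or all 16 (18828 genes, for HET). Benjamini-Hochberg adjustment ran over all genes tested and adjusted p under 0.05 was called. DESeq2 1.42.0 and other alternatives are given at the end. The common biological coefficient of variation was 0.456 and 0.424. CPM used TMM factors of all 16 libraries, and RPKM the exon lengths of Gencode M21, which also gave names and positions (47224 of 47937 genes matched by identifier). The SE was derived from the fitted log2 fold change and its F statistic. Floors are 3 reads over a group, and these and the intervals cover counting error only. p-values measure the spread between libraries, which the labels do not tie to separate animals and which pool more mice in KO at 25 weeks.

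The 8 genes, the tissue and marker lists and the tests were chosen with earlier results of these data known. Named genes are the 8, the other Nkx genes, Eed, the nearest coding neighbours, the 5 most alike over 16 libraries, and from each list up to 4 genes of smallest p. Some genes this rule names are not reported here. The scripts were tested on simulated counts.

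The labels do not say that replicate numbers mark litters. Deviations from the group mean correlated between WT and KO libraries that share an age and a number, at 0.457 and 0.163 at 8 weeks and 0.176 and 0.255 at 25 weeks, and the fit with the number as a block is given where it changes a call. Libraries of different numbers correlated from −0.528 to 0.450. Deviations within a group sum to 0, so these correlations are not independent of each other. For the KO libraries at 25 weeks they are exact opposites. Duplicate deposits were looked for and not found (chi-square per degree of freedom 31.03 to 591.6 over 14 pairs).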

Additional observations from a re-analysis of the deposited data

How the results depend on the processing

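The calls of Nkx2-1 and Nkx2-5 at 25 weeks held under every alternative run against WT and HET, with adjusted p up to 0.0371 and 0.040 for Nkx2-5 and up to 0.0327 and 0.0365 for Nkx2-1. With the replicate block 2 of 6 genes were called at 25 weeks, since Nkx2-3 fell out, and in the comparisons fitted with the block (KO against WT at each age and their difference) it changed no other call of the 6 genes. Where 1 KO or HET library was left alone in its group, it was assumed to vary like the other groups. Leaving out 1 library gave 2 to 4 called genes against WT at 25 weeks, 0 to 3 for KO at 25 against 8 weeks, 0 to 1 for KO against HET at 8 weeks, and 0 for KO against WT at 8 weeks, HET against WT and the age difference of the KO effect. KO against HET at 8 weeks gave 0 with library size alone and with no filter on low counts, and the age difference gave 1 with DESeq2. Nkx2-3 between KO at 25 and 8 weeks passed with RLE factors (log2 difference 1.68, adjusted p = 0.0482), DESeq2 (0.000106), all 16 libraries in the fit (0.015) and without WT replicate 2 at 25 weeks (0.0363). Eed at 8 weeks was called with DESeq2 (−1.02) and with all 16 libraries (−1.03). Start states of the 8 genes were the same over a 1 kb window and at the RefSeq start.

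Over all genes, KO against WT at 25 weeks gave 1234 calls, 2088 with DESeq2, 2649 with WT and HET pooled and 392 to 1609 with 1 library left out. At 8 weeks it gave 81 calls, 393 with DESeq2, 503 pooled, 137 with no filter, 0 with the block and 18 to 135 with 1 library left out. KO at 25 against 8 weeks gave 281, 943 with DESeq2, 168 with library size alone, 473 with all 16 libraries and 36 to 386 with 1 left out. The age difference of the KO effect gave 37, 341 with DESeq2, 73 with no filter, 90 with all 16 libraries, 204 pooled, 11 with library size alone, 2 with the block and 10 to 40 with 1 left out. KO against HET gave 1574 at 25 weeks (2696 with DESeq2, 913 with library size alone, 302 to 781 with 1 left out) and 892 at 8 weeks (2281, 505 and 143 to 4014). HET against WT at 8 weeks gave 0, 413 with DESeq2 and up to 601 with 1 left out. The causes were not tested. For the 6 tested genes, no fold change of KO against WT or HET, or of KO at 25 against 8 weeks, changed sign under the alternatives run, while the age difference of Nkx6-2 (−0.76 to 2.37) and Nkx6-3 (−0.61 to 2.12), and HET against WT for Nkx6-2 at both ages and Nkx6-3 at 25 weeks, took both signs without a call. Depth limits Nkx2-6, Nkx2-9, Nkx6-2 and Nkx6-3, with under 30 reads in any library.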
